A study of Hydra vulgaris with 113 samples.

Results

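The early chromatin response of foot-regenerating tips of Hydra vulgaris under iCRT14, from 0 to 3 h after amputation, was measured by ATAC-seq, in which a transposase cuts and marks accessible DNA. The members are the 9 ATAC-seq libraries whose titles give foot regeneration, iCRT14 treatment and 0 h (4 libraries) or 3 h (5 libraries), out of 71 ATAC-seq libraries and 113 samples in the series. Polyps of strain 105 were cut across the mid-body column, and the wound-side tips of the pieces were collected at set times. The upper piece makes a new foot and the lower piece a new head. iCRT14, an inhibitor of the TCF/β-catenin interaction, was given at 5 µM from 2 h before the cut until collection. At 0 h these tips had thus been in the inhibitor for 2 h, and at 3 h for 5 h, so time after the cut and time in the inhibitor rise together and cannot be told apart within the treated tips alone. The libraries used for comparison were untreated foot tips at 0 h (5 libraries) and 3 h (3 libraries), and head tips in 5 µM iCRT14 at 0 h (4 libraries) and 3 h (4 libraries). For side scores, untreated head tips at 0 h (5 libraries) and iCRT14 head tips at 12 h (4 libraries) were also used. Later levels came from foot tips at 8 and 12 h, in iCRT14 (4 and 5 libraries) and untreated (5 and 5). Treated tips had then been in the inhibitor for 10 and 14 h. The untreated tips had no stated vehicle, so the inhibitor and its solvent cannot be told apart. Each library pooled about 15 tips, and differences between single polyps are not seen. The series holds no RNA-seq library of iCRT14 tips at 3 h.

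Canonical Wnt signalling keeps the head organizer of Hydra active: stabilised β-catenin enters the nucleus and binds TCF, a DNA-bound factor of the HMG box class, which then activates its target genes. Amputation also sets off a wound response in many animals. In that response stress kinases act on basic leucine zipper (bZIP) factors, which bind the CRE site (Atf and Creb proteins) or the AP-1 site (Jun and Fos proteins), and Egr zinc-finger factors are made within a short time. A pair of readouts was used: the accessibility of peaks, given as CPM (counts relative to the TMM-adjusted library size), and a deposited deviation score for each of 332 motifs. The score has no unit and is positive for a library in which the motif's peaks were open more than on average. The motifs carry the names of mostly vertebrate factors whose sites were used to define them. A score therefore speaks of the peaks that hold that letter pattern and not of which Hydra protein sits there. The peaks have no gene annotation here, so they are given by number and scaffold position as deposited, and no gene marker of tissue identity could be read.

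Library depth and sample identity were examined first. The treated foot libraries held 12.3, 18.0, 18.1 and 13.7 M counts in peaks at 0 h, and 9.23, 10.8, 12.8, 10.7 and 7.85 M at 3 h. The 3 h libraries were shallower by 5.23 M on average (10.3 ± 1.86 against 15.5 ± 2.95 M, SD, n = 5 and 4; exact permutation test, two-sided, p = 0.0317, where 0.0159 is the smallest that 126 arrangements allow). The untreated foot libraries were deeper, at 20.6 to 27.4 M at 0 h and 27.1 to 42.3 M at 3 h. A side score was then taken as the mean log2 CPM of the 800 peaks that were more open in untreated head than foot tips at 0 h (edgeR; 1.81% of peaks differed in either direction) minus that of the 1169 that were more open in foot tips. The treated foot libraries scored between -1.07 and -0.738 at 0 h. At 3 h, replicates 1, 2 and 3 scored -0.600, -0.508 and -0.642, whereas the libraries labelled replicates 4 and 5 scored 0.264 and 0.0818. Treated head replicates 1, 2 and 3 at 3 h scored 0.145, 0.297 and 0.167, and the library labelled head replicate 4 scored -0.567. Foot replicate 4 thus lay among head replicates 1 to 3. Foot replicate 5 lay below these and above foot replicates 1 to 3. With a second set of peaks, the 3331 head-high and 1737 foot-high peaks of treated tips at 12 h (4.65% of peaks differed), the foot replicates 1 to 5 at 3 h scored 0.0794, -0.0567, -0.103, 0.243 and 0.399. Head replicates 1 to 4 scored 0.514, 0.532, 0.273 and -0.0939 on that set. Whether these 3 libraries were exchanged was not tested, and the counts below are given with the labels as deposited, and the main ones also without these libraries. Head and foot tips in iCRT14 differed at 176 peaks at 0 h and at 5 peaks at 3 h (edgeR). At 3 h the sides differed at 83 peaks once foot replicates 4 and 5 were left out, and at 1086 once head replicate 4 was left out too. These libraries were singled out by a head and foot score, which by itself favours more such calls without them, so the 2 counts are descriptions.

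**Figure D1:**
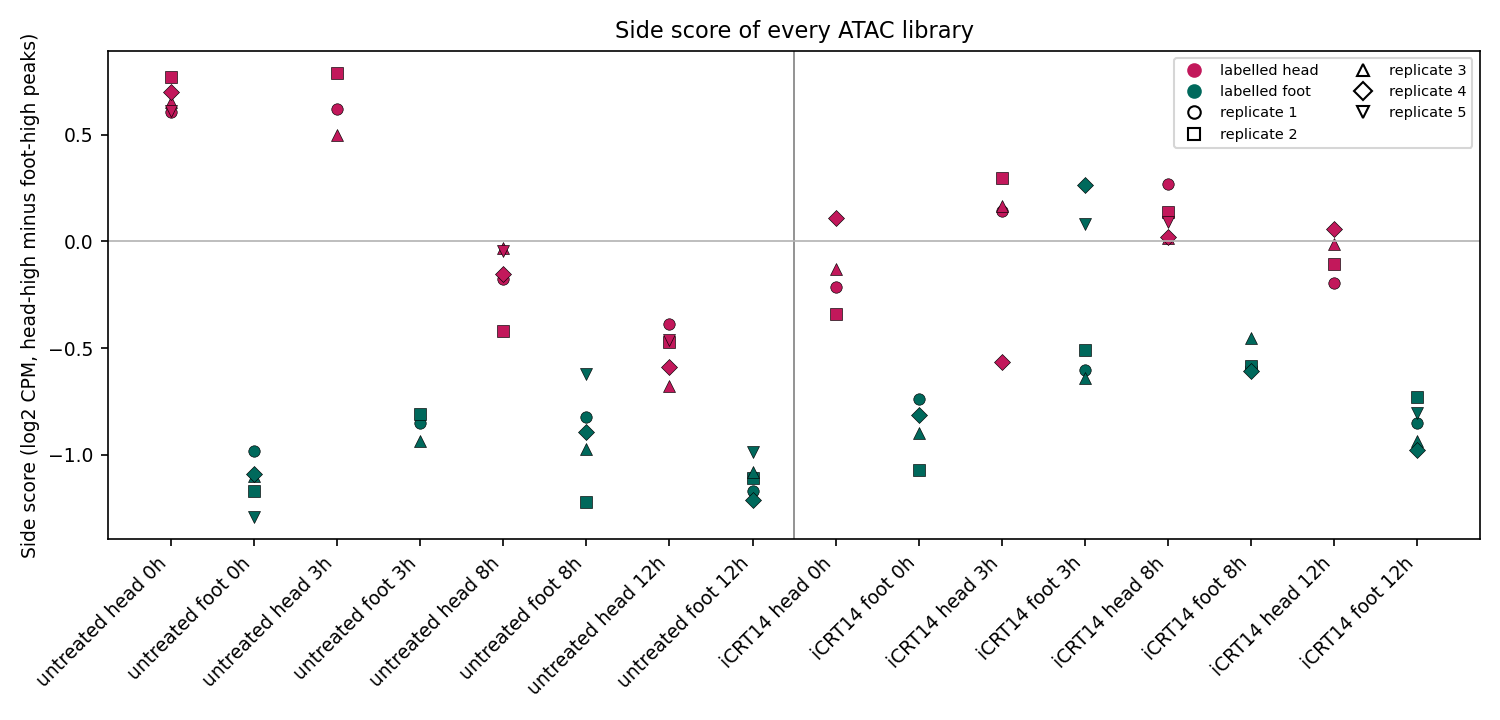
Side score (mean log2 CPM of head-high minus foot-high peaks of untreated tips at 0 h) of each ATAC-seq library, by treatment, side and time, 1 point per library with the replicate as its shape. In the column of iCRT14 foot tips at 3 h, replicates 4 and 5 lie at 0.264 and 0.0818, beside the head libraries, and replicate 4 of iCRT14 head tips at 3 h lies at -0.567, beside the foot libraries.

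Between 0 and 3 h, chromatin of treated foot tips closed at more peaks than it opened. Of 108934 tested peaks, 17028 changed (15.6%; quasi-likelihood test of edgeR at a Benjamini-Hochberg adjusted p below 0.05). Of these, 5615 peaks opened (5.15% of those tested) and 11413 closed (10.5%). Opened peaks were 33% of the calls, and 42.1% with DESeq2 in a fit of the compared groups alone. The share was 42.2% with limma-voom after quantile normalization. It was 42.6% without replicate 1 of the 0 h group and 27.4% without replicate 1 of the 3 h group. Opening peaks reached larger sizes: 212 opened and 52 closed more than 4-fold, although the median log2 fold changes of 0.764 and -0.763 were nearly the same size. The CPM of the 4 and the 5 libraries did not overlap at 3925 of the opened and 8696 of the closed peaks. These peaks were called from the same libraries, and the share over all tested peaks was not counted, so both counts are descriptions. Since the tips are bulk tissue, a smaller share of cells of one kind and less open chromatin per cell cannot be told apart. With every library thinned to the smallest total, 11927 peaks were called, 11155 of them shared with the full set. Without replicates 4 and 5 of the 3 h group 16638 peaks were called, 13699 of them shared with the full set. Leaving out replicate 1 of the 3 h group gave 15756 calls.

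Opened and closed peaks differed in kind. Peaks that opened had a median width of 758 bp and peaks that closed 674 bp, against 595.5 bp over all tested peaks. Closed peaks were the more accessible ones to begin with: their median in untreated foot tips at 0 h, libraries that took no part in the contrast, was 12.9 CPM, against 4.85 CPM for opened peaks and 3.78 CPM over all tested peaks. A wide or deep peak gives more counts and is more readily called, so these medians describe the called peaks only. Changes came in clusters along the scaffolds. An opened peak had an opened neighbour in 39.9% of cases, against 9.01% over all tested peaks, and a closed peak had a closed neighbour in 40.3%, against 18.6%.

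The longest unbroken run of opened peaks held 16 neighbours over 52.9 kb of scaffold Sc4wPfr_399.2 (410337 to 463200). Its summed accessibility was 50.1, 59.7, 64.1 and 58.2 CPM at 0 h and 308, 241, 287, 268 and 267 CPM at 3 h, with no overlap of the groups. All peaks of a run were called from these same libraries, which favours such a gap. Single peaks of the run rose by 0.73 to 3.28 on the log2 scale, and all 16 were also called in untreated foot tips. The next run held 15 peaks over 49.0 kb of Sc4wPfr_246 (881731 to 930750), where the sum went from 86.5, 96.8, 102 and 95.2 CPM to 541, 344, 409, 358 and 346 CPM. It contains 3 of the 10 peaks with the largest rise. A run of 13 peaks spanned 67.5 kb of Sc4wPfr_1303 (23615 to 91124), with sums of 101 to 105 CPM at 0 h and 179 to 204 CPM at 3 h. Runs of closing peaks were shorter. The longest held 9 peaks over 11.3 kb of Sc4wPfr_541 (511057 to 522385), falling from 203 to 250 CPM at 0 h to 98.1 to 131 CPM at 3 h, and 6 of its 9 peaks were also called in untreated tips. Runs of 8 peaks closed on Sc4wPfr_1096 (1164832 to 1207597) and on Sc4wPfr_25.1 (1023279 to 1046510).

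The largest rises fell into 3 kinds, which are described in turn from the 10 opened peaks with the largest log2 fold change among those with at least 5 CPM and no overlap of the libraries. The first kind opened in untreated tips too. Peak 40668 (Sc4wPfr_246, 887523 to 889535) held 4.92, 6.19, 7.36 and 5.22 CPM at 0 h and 129, 70.7, 83.2, 67.4 and 60.7 CPM at 3 h. Every 3 h library exceeded every 0 h library, and the log2 fold change was 3.78 (SE 0.31, edgeR adjusted p = 1.82e-16). In untreated foot tips the same peak went from 2.93 to 4.05 CPM at 0 h to 42.0, 32.9 and 23.6 CPM at 3 h. Its rise did not pass the test for a difference between the treatments (0.545, SE 0.424, edgeR adjusted p = 0.657). In treated foot tips the peak stood lower again later, at 27.1 ± 12.1 CPM (SD, n = 4) at 8 h and 11.9 ± 5.28 CPM (SD, n = 5) at 12 h. Its neighbours 40669 and 40674 rose by 3.97 and 3.77, and peak 46496 (Sc4wPfr_2717, 2225 to 4642) rose by 3.75 (SE 0.24, edgeR adjusted p = 8.58e-22), from 3.75 to 5.12 CPM to 43.5 to 79.8 CPM.

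The second kind opened at 3 h in the inhibitor but showed no such level in untreated tips at 3 h. Peak 54952 (Sc4wPfr_322.1, 183786 to 184188) held 1.92, 0.48, 2.09 and 1.11 CPM at 0 h and 36.4, 38.3, 25.8, 14.8 and 26.4 CPM at 3 h (log2 fold change 4.35, SE 0.791, edgeR adjusted p = 1.39e-05). Untreated foot tips at 3 h held 1.31, 1.05 and 0.318 CPM, below every treated library of that time. The difference between the 2 changes was 4.87 (SE 1.27, edgeR adjusted p = 0.0328). Peak 42955 (Sc4wPfr_252.1, 346573 to 346840) went from 4.48 to 7.18 CPM to 209, 135, 91.7, 24.3 and 66.1 CPM, against 7.95 to 8.46 CPM in untreated tips at 3 h, with a difference of 4.42 (SE 1.05, edgeR adjusted p = 0.0145). Peak 5106 (Sc4wPfr_1080, 177852 to 178250) rose by 3.97 and its difference between treatments was 4.56 (SE 1.18, edgeR adjusted p = 0.0297). Peak 111958 (Sc4wPfr_911, 183289 to 184032) rose by 3.86, and its difference of 3.89 (SE 1.17) did not pass the test (edgeR adjusted p = 0.0813). These 4 peaks also rose in treated head tips, by 4.26 to 5.3, and stayed high later, with peak 42955 at 246 ± 108 CPM (SD, n = 4) at 8 h and 146 ± 99.5 CPM (SD, n = 5) at 12 h in treated foot tips. At 12 h untreated foot tips held 164 ± 144 CPM (SD, n = 5) at peak 42955, a spread close to the mean. At peaks 54952, 5106 and 111958 they held 31.9 ± 27.4, 45.4 ± 39.2 and 13.2 ± 11.6 CPM (SD, n = 5) at 12 h. Treated foot tips held 41.2 ± 26.5, 60.5 ± 35.3 and 17.8 ± 10.6 CPM (SD, n = 5) there at that time.

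In the third kind the size of the rise, though not the call, depended on the library labelled replicate 1 of the 3 h group. Peak 7408 (Sc4wPfr_1127.1, 121733 to 122171) held 1.42, 1.76, 4.23 and 2.85 CPM at 0 h and 6340, 167, 53.1, 15.4 and 625 CPM at 3 h. All 5 libraries lay above all 4, as the rule for naming these peaks required, and the 3 h values spread from 15.4 to 6340 CPM. The log2 fold change of 9.09 (SE 0.936, edgeR adjusted p = 1.44e-12) became 6.34 without replicate 1 (edgeR adjusted p = 3.69e-11). The peak also rose in treated head tips, by 3.35 (edgeR adjusted p = 0.000784). Peak 16012 (Sc4wPfr_135, 839914 to 841071) went from 102, 87.9, 83.0 and 87.6 CPM to 13500, 453, 233, 117 and 1250 CPM, and its log2 fold change was 5.11 with and 2.5 without that library (edgeR adjusted p = 1e-09 without it). Both peaks ranked the 5 libraries in the same order. Only 6 of 108934 peaks, picked after their values were seen, held at least 10 times the median of the other 3 h libraries and at least 5 CPM in replicate 1, and no peak did so in any of the other 4 libraries. The others were peak 16013, next to 16012 (7120 CPM in replicate 1), peaks 104259 and 104260 on Sc4wPfr_802 (394 and 539 CPM), and peak 7599 (26.7 CPM). Peak 104260 was called with a log2 fold change of 4.4 (edgeR adjusted p = 1.23e-08), which was 0.295 (edgeR adjusted p = 0.502) without replicate 1. Peaks 104259 and 7599 lost their calls in the same way (edgeR adjusted p = 0.547 and 0.868).

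**Figure D2:**
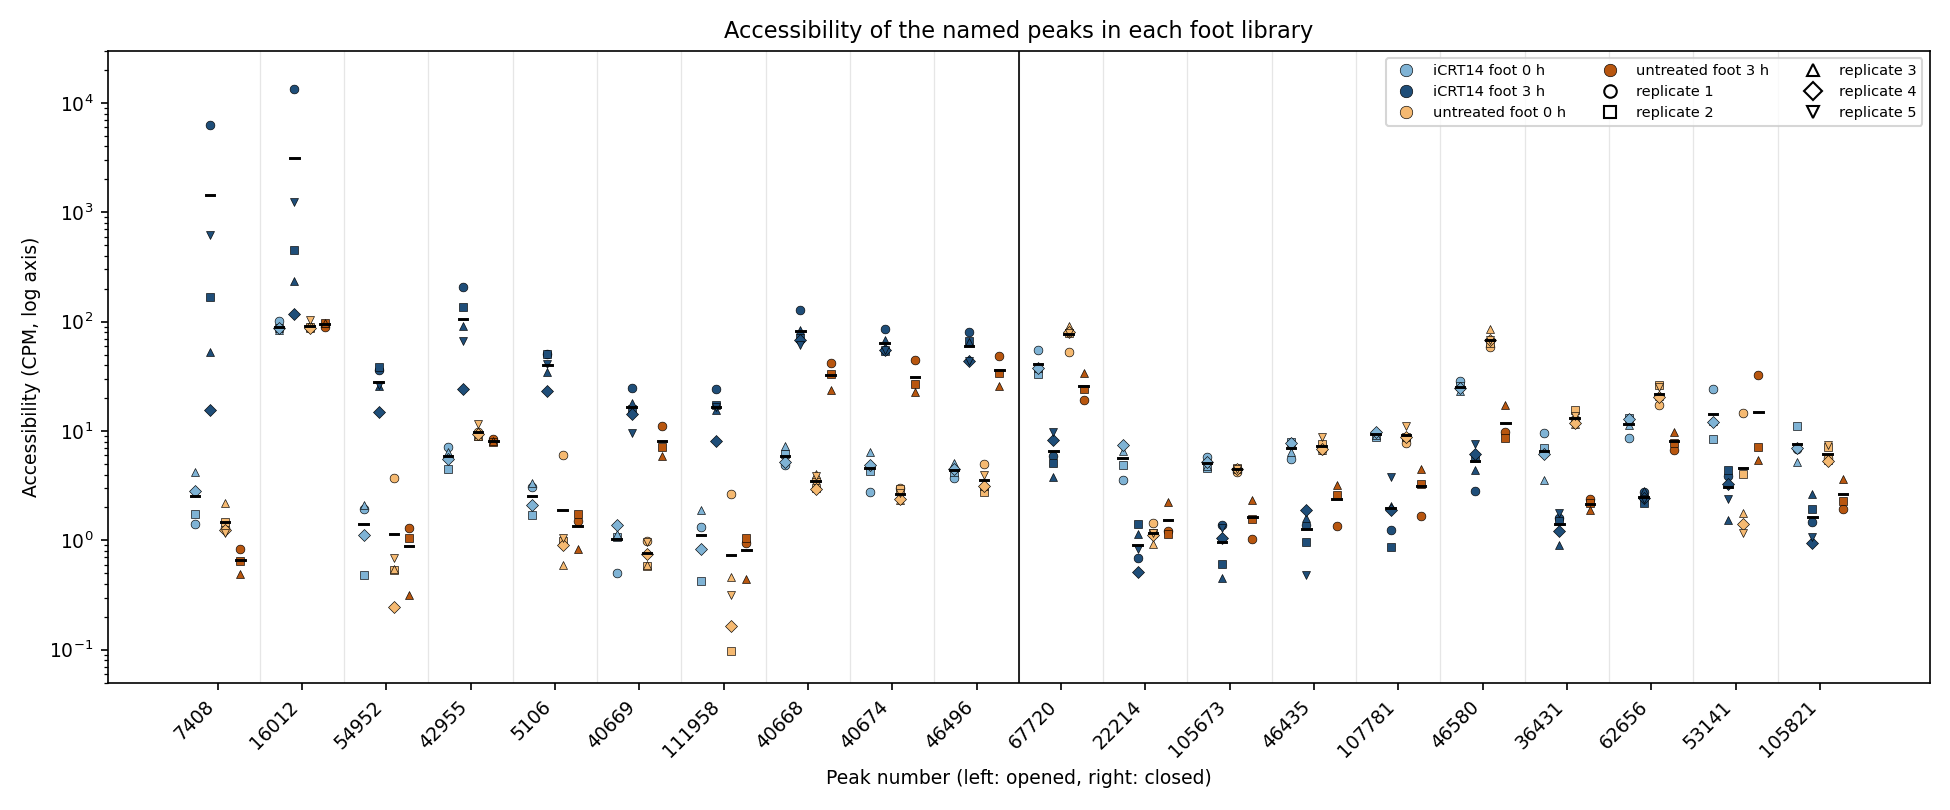
Accessibility (CPM, log axis) of the 10 opened and 10 closed peaks with the largest log2 fold changes, 1 point per foot library at 0 h and 3 h with and without iCRT14, with bars at group means. Peaks 40668, 40669, 40674 and 46496 rise in both treatments, peaks 54952, 42955, 5106 and 111958 are high in iCRT14 at 3 h and low in the untreated libraries of both times, and replicate 1 reaches 6340 and 13500 CPM at peaks 7408 and 16012.

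Closing peaks fell by less. The largest fall by the same rule was peak 67720 (Sc4wPfr_399.2, 791469 to 793678), with 55.0, 33.3, 37.7 and 37.9 CPM at 0 h and 5.93, 5.09, 3.8, 8.29 and 9.8 CPM at 3 h (log2 fold change -2.66, SE 0.248, edgeR adjusted p = 3e-14). In untreated foot tips it fell by 1.56 on the log2 scale, from 52.4 to 91.5 CPM to 19.4, 24.0 and 33.9 CPM, and the difference between the changes did not pass the test (-1.1, SE 0.338, edgeR adjusted p = 0.0957). It was back at 44.9 ± 5.2 CPM (SD, n = 5) at 12 h in the inhibitor. Peak 46580 (Sc4wPfr_272, 573660 to 575278) was lower in the inhibitor at 0 h, with 23.4 to 28.5 CPM at 0 h against 58.2 to 85.3 CPM in untreated tips. It fell to 2.85 to 7.65 CPM at 3 h, by 2.26 on the log2 scale, and untreated tips fell by 2.51. Of the 10 closed peaks, 8 were also called as closed in untreated foot tips, with log2 fold changes between -2.6 and -1.21. The remaining peaks were 22214 and 53141, which were called higher at 0 h in the inhibitor, although the libraries overlapped at 53141.

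Peak 22214 (Sc4wPfr_1599, 80768 to 81000) held 3.59, 4.86, 6.63 and 7.51 CPM in treated tips at 0 h, above the 0.927 to 1.45 CPM of untreated tips. At 3 h it held 0.518 to 1.4 CPM in treated and 1.14 to 2.22 CPM in untreated tips. The fall of 2.6 (SE 0.336, edgeR adjusted p = 3.12e-09) was thus a fall from a level that untreated tips did not have. Peak 53141 (Sc4wPfr_3090, 15054 to 15777) went from 24.0, 8.43, 12.3 and 12.2 CPM to 1.52 to 4.39 CPM, a call that was lost without replicate 1 of the 0 h group (edgeR adjusted p = 0.0538). Untreated tips held 14.5, 4.06, 1.77, 1.4 and 1.17 CPM at 0 h, which overlapped the treated libraries. At 3 h they held 32.4, 7.07 and 5.38 CPM, and the peak was called as opened there (1.66, edgeR adjusted p = 0.0369).

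The called peaks were followed to 8 and 12 h in libraries outside the contrast. The median log2 CPM of the 5615 opened peaks in treated foot tips was 2.49 before and 3.32 after the first 3 h, then 3.07 at 8 h and 2.78 by 12 h. That of the 11413 closed peaks was 3.43, 2.66, 2.90 and 3.21. In both directions the median had thus moved back toward the 0 h value by 12 h. Untreated foot tips gave 2.30, 3.07, 2.47 and 2.52 for the opened and 3.69, 3.17, 3.32 and 3.31 for the closed peaks. The 0 h and 3 h values of treated tips chose these peaks and are given as a description.

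Motif scores moved widely over the same 3 h. Of 332 motifs, 218 changed (65.7%; limma, Benjamini-Hochberg adjusted p below 0.05), of which 124 rose (37.3%) and 94 fell (28.3%). With such a background, a call for a single motif says little, and the sizes are given below. Motifs of a list share their libraries and can share peaks, and some stand in another list too. Counts within a list are therefore not counts of independent results. The median change of all motifs was 0.206 score units. At 92 of the rising and 78 of the falling motifs the 4 and the 5 libraries did not overlap. These counts too were taken only among called motifs of the same libraries and are descriptions. Without replicates 4 and 5, 206 motifs were called, 199 of them shared, and without replicate 1, 218 were called.

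Motifs of CRE-type bZIP factors had the largest rises, with all 6 of 6 rising (median change 7.53). Atf1, the site of a Creb-family activator, scored -3.71, -3.17, -0.0448 and -3.37 at 0 h and 3.5, 7.9, 9.1, 9.21 and 11.1 at 3 h. The groups did not overlap, and the change was 10.7 (SE 1.57, limma adjusted p = 2.58e-08). Atf7 and JunD, close relatives of Atf2 and Jun, rose by 8.56 (SE 0.907, limma adjusted p = 3.36e-12) and 8.04 (SE 1.03, limma adjusted p = 9.95e-10). The consensus CRE motif scored -4.06, -3.06, -1.72 and -3.69 at 0 h and 0.16, 4.38, 5.21, 6.12 and 3.6 at 3 h, where replicate 1 was the lowest. The same library was the lowest of its group for Atf1, c-Jun-CRE (0.827 against 5.09 to 6.04) and Atf2 (0.68 against 5.02 to 5.81). Without replicate 1 the change was 11.9 for Atf1 and 7.96 for CRE.

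**Figure D3:**
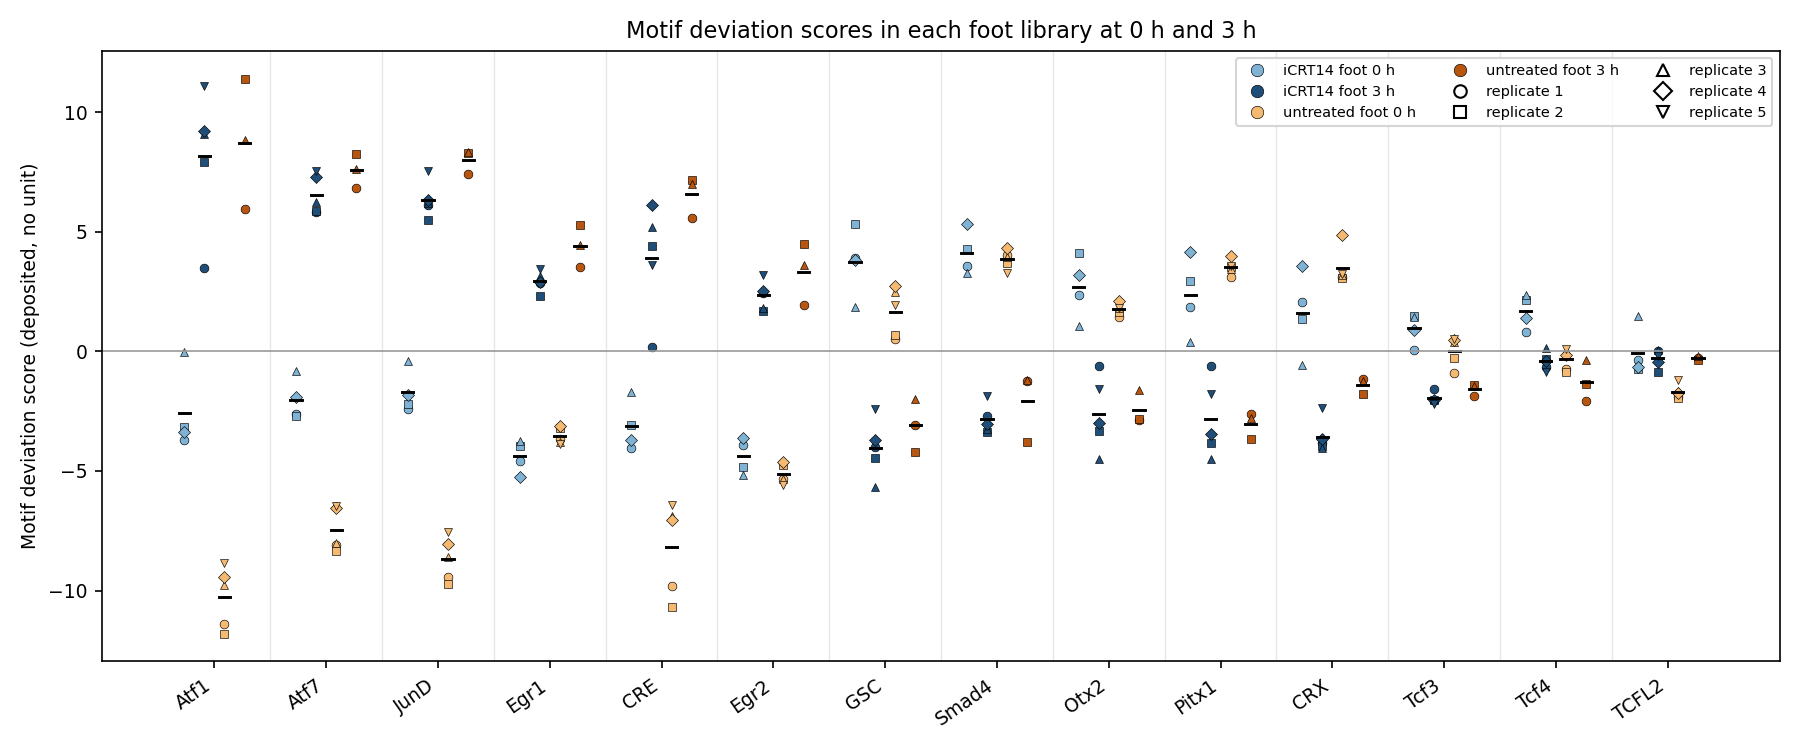
Motif deviation scores (no unit) of 14 motifs in each foot library at 0 h and 3 h, with and without iCRT14, with bars at group means. At 0 h Atf1 lies between -11.8 and -8.86 in untreated and between -3.71 and -0.0448 in treated tips, and Atf1, Atf7, JunD and CRE lie above 0 in every library of both treatments at 3 h.

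The AP-1 site differs from the CRE site by the spacing of its arms. The AP-1-type list behaved less evenly than the CRE-type list. It also holds motifs named for Bach, Maf, NF-E2 and Nrf2 factors, so its counts are not those of the Jun and Fos site alone. Of 14 AP-1-type motifs, 3 rose (AP-1, Fra2 and Jun-AP1), 2 fell (Bach1 and MafF) and 9 did not pass the test, with a median change of -0.305 beside 0.206 over all motifs. Jun-AP1, a Jun and Fos site, scored 0.719, -5.35, -2.7 and -4.15 at 0 h and 1.16, 0.18, 0.935, 1.43 and 1.14 at 3 h. Replicate 1 of the 0 h group lay within the 3 h values, so the groups overlapped, and the change was 3.84 (SE 0.69, limma adjusted p = 2.33e-06). The same library stood high for AP-1 (1.39 against -4.52, -2.34 and -3.35) and was also the highest of its group for Fosl2. Without it, 5 AP-1-type motifs rose and 1 fell. In untreated foot tips 12 of the 14 rose and 2 fell.

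Other groups that rose were Egr, Sp and KLF zinc fingers, ETS factors and most bHLH factors. Egr1, named for an immediate early gene of vertebrate wound and growth responses, scored between -5.24 and -3.76 at 0 h and 2.85, 2.3, 3.16, 2.9 and 3.46 at 3 h, a change of 7.32 (SE 0.591, limma adjusted p = 4.05e-16) with no overlap. Egr2 rose by 6.73 (SE 0.62, limma adjusted p = 4.73e-14), and KLF14, Sp1 and Klf9 by 5.23, 4.78 and 4.5. In the list that joins GATA, KLF, Sp and Egr motifs, 9 of 20 rose and 9 fell, and the direction followed the family: the 9 that fell were all GATA motifs, and the 9 that rose were Egr, KLF or Sp motifs.

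Among 22 ETS motifs, 17 rose and none fell, with ELF1 at 6.47 (SE 0.787, limma adjusted p = 2.64e-10). It scored -2.31, -4.64, -3.95 and -4.1 at 0 h and 1.98 to 3.32 at 3 h, again without overlap. Among 38 bHLH motifs, which are read by E-box factors such as Myc and Max, 30 rose and 1 fell. Max scored between -3.08 and -2.54 at 0 h and 4.44, 2.28, 2.11, 1.23 and 1.19 at 3 h, with replicate 1 the highest. Its change was 5.06 (SE 0.516, limma adjusted p = 9.36e-13). Of 5 CEBP and Atf4 motifs 4 rose, with Chop, a site of unfolded-protein and amino acid stress factors, at 6.51 (SE 0.568, limma adjusted p = 6.34e-15). In the IRF list 8 of 9 motifs rose, led by the composite bZIP:IRF at 3.96, and 4 of 5 SRF and MEF2 motifs rose, with Mef2d at 3.32. Forkhead motifs followed with 7 of 13 rising and 1 falling (Foxo1, -1.87). Without replicate 1 of the 0 h group, 5 Forkhead motifs rose.

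Motifs of Smad, TEAD, Sox, RFX and a subset of homeobox factors fell. Smad proteins carry TGF-β and BMP signals, and all 3 Smad motifs fell. Smad4 scored 3.57, 4.29, 3.27 and 5.33 at 0 h and -2.69, -3.38, -3.23, -3.05 and -1.86 at 3 h, a change of -6.95 (SE 0.523, limma adjusted p = 3.5e-17). Smad2 fell by 5.12 (SE 0.496) and Smad3 by 3.25 (SE 0.49). TEAD factors are the DNA-binding partners of the Hippo effector Yap, and all 3 TEAD motifs fell, with TEAD4 going from 1.64, 1.47, -0.595 and 0.981 to between -3.39 and -2.44 (change -3.69, SE 0.363, limma adjusted p = 3.02e-13). The groups did not overlap for Smad4 or TEAD4. Of 7 Sox motifs 6 fell, with Sox2 at -3.76 (SE 0.506, limma adjusted p = 3.41e-09). Of 8 motifs of the helix-turn-helix list 6 fell, and 5 of those are RFX or X-box motifs, read by regulators of ciliary genes in animals, with Rfx2 at -4.16 (SE 0.579, limma adjusted p = 7.58e-09).

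The largest fall among the homeobox motifs was that of GSC (goosecoid), whose K50-type site is shared with Otx2, Pitx1 and CRX. GSC scored 3.88, 5.32, 1.87 and 3.83 at 0 h and -4.0, -4.46, -5.67, -3.71 and -2.39 at 3 h, a change of -7.77 (SE 0.988, limma adjusted p = 8.48e-10). Otx2, Pitx1 and CRX fell too, with changes of -5.29, -5.18 and -5.16, and none of the 4 overlapped between the times. Over the whole homeobox list 23 of 57 motifs fell, 10 rose and 24 did not pass the test. GATA3 with a DR4 spacing, Gata2 and Gata6 fell, with changes of -4.45, -3.98 and -3.96. The remaining lists were mixed: of 30 nuclear receptor motifs 8 rose and 9 fell, of 9 POU motifs 2 and 4, of 8 Paired motifs 1 and 3, of 7 STAT motifs 2 and 2, of 5 RUNX motifs 1 and 2, and of 3 p53 motifs 1 and 1. Of 5 NF-kB and NFAT motifs 2 fell, both of them NFAT motifs, and of 2 heat shock factor motifs 1 fell. The RUNX median was 0.137 and -0.0532 after centring each library on its median. Without replicates 4 and 5 of the 3 h group the counts of the TCF, CRE-type, AP-1-type, Sox, TEAD, Smad and Forkhead lists were the same, while 14 ETS, 6 homeobox and 5 nuclear receptor motifs rose.

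No motif of TCF, the factor whose binding to β-catenin iCRT14 blocks, passed the test for a rise in the inhibitor. Tcf3 scored 0.0694, 1.46, 1.45 and 0.886 at 0 h and -1.56, -2.04, -1.99, -2.02 and -2.21 at 3 h, and fell by 2.93 (SE 0.465, limma adjusted p = 1.52e-07). Tcf4 fell by 2.09 (SE 0.557, limma adjusted p = 0.000824), from 0.814 to 2.34 at 0 h to between -0.86 and 0.126 at 3 h. Neither overlapped between the times. TCFL2 scored -0.364, -0.744, 1.48 and -0.661 at 0 h and 0.00381, -0.858, 0.0505, -0.441 and -0.211 at 3 h, with the groups overlapping and a change of -0.218 (SE 0.435, limma adjusted p = 0.687). Its sign rests on replicate 3 of the 0 h group, without which the change was 0.298.

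In untreated foot tips TCFL2 went from -1.92, -1.95, -1.67, -1.74 and -1.19 at 0 h to -0.271, -0.35 and -0.191 at 3 h, a rise of 1.42 (SE 0.474, limma adjusted p = 0.00703). The change in the inhibitor was lower by 1.64 (SE 0.643, limma adjusted p = 0.0439), but this passed the test narrowly: adjusted p-values ran from 0.0518 to 0.162 in the alternatives that lost the call, which included centring the scores and leaving out any of 10 libraries in turn. At 0 h TCFL2 scored higher in treated than in untreated tips by 1.62 (SE 0.435, limma adjusted p = 0.0013), and at 3 h the difference was -0.0207 (SE 0.474). The comparisons at 0 h, at 3 h and of the changes share their libraries. For Tcf3 and Tcf4 the difference between the changes was -1.32 (SE 0.687, limma adjusted p = 0.131) and -1.13 (SE 0.824, limma adjusted p = 0.289). In a fit of only the groups compared, the Tcf3 difference passed narrowly (-1.32, limma adjusted p = 0.0485).

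The response in iCRT14 was next set beside that of untreated foot tips, in which 16347 peaks (15.0%) and 219 motifs (66.0%) changed. These are different libraries throughout. In all, 8339 peaks were called in both, which is 49.0% of the treated and 51.0% of the untreated list, and 8274 of them moved the same way. Among motifs, 159 were called in both (72.9% and 72.6%), 149 in the same direction. The log2 fold changes of the 2 treatments had a Pearson r of 0.54 across 108934 peaks, and the motif changes one of 0.793 across 332 motifs. Both values are descriptions, since peaks and motifs share libraries and depth. Of the 7194 peaks that opened in untreated tips, 2740 were called as opened in treated tips, where their median log2 fold change was 0.446. Of the 9153 that closed, 5534 were called as closed in treated tips, with a median of -0.639. The untreated medians of these lists (0.909 and -0.738) were set by the choice of peaks and are no measure of a difference in size. Without replicates 4 and 5 of the treated 3 h group, 7558 peaks were called in both treatments (45.4% and 46.2%), and r was 0.455 across peaks and 0.734 across motifs.

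**Figure D4:**
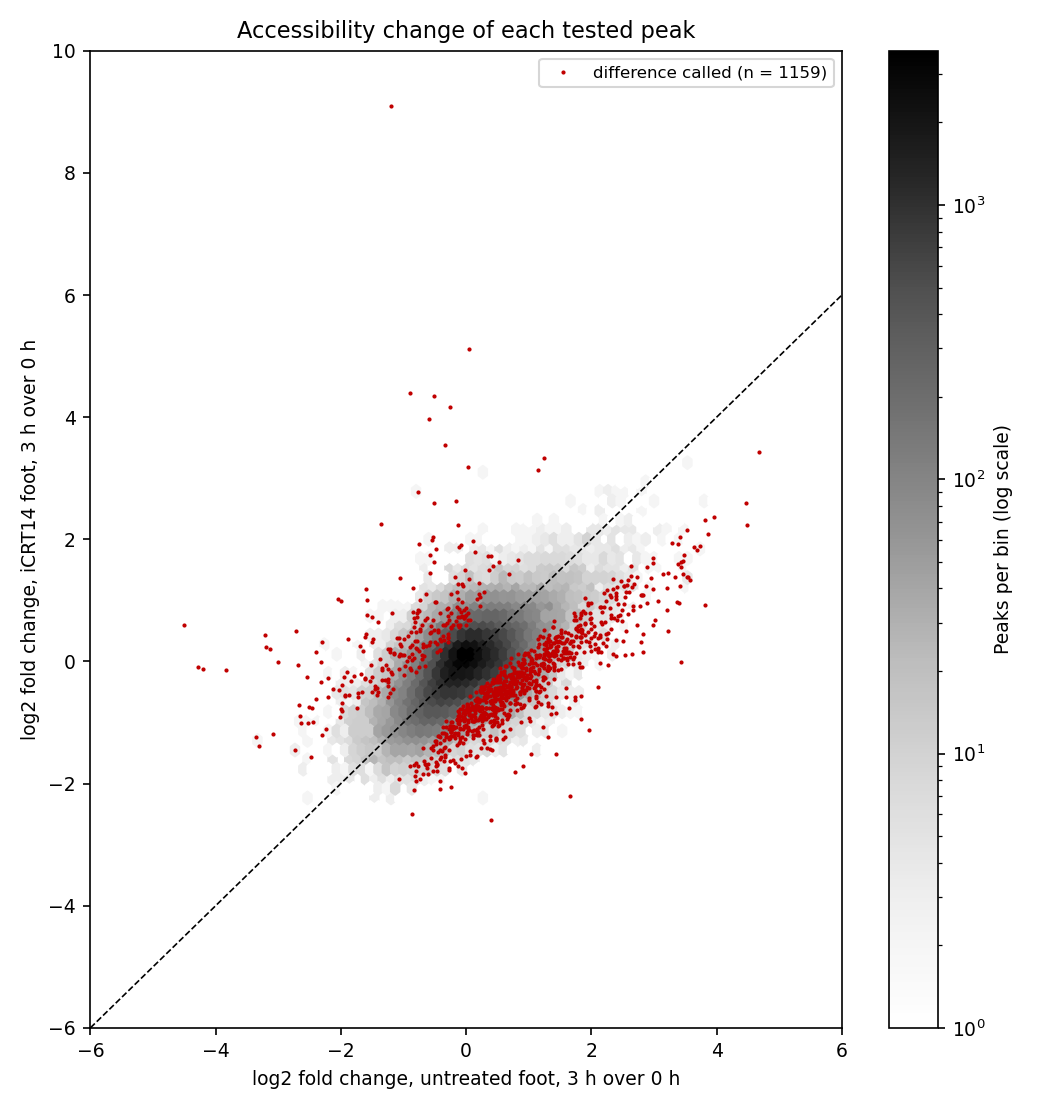
Log2 fold change from 0 to 3 h in treated against untreated foot tips for each of 108934 tested peaks (grey shade, peaks per bin on a log scale), with the 1159 peaks whose changes differed in red and the line of equal change dashed. Most red points lie below the line, and the topmost point is peak 7408 at 9.09.

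The difference between the 2 changes was tested directly. It passed at 1159 peaks (1.06%; edgeR), of which 258 (0.237%) had the more positive change in iCRT14 and 901 (0.827%) the more negative one. The more positive changes were 22.3% of these calls, and 35.9% with DESeq2 in a fit of the compared groups alone. Of the 1159 peaks, 640 changed with opposite signs, 362 with the same sign and a smaller size in iCRT14, and 157 with the same sign and a larger size. The same-sign, smaller kind was 31.2% of these peaks, beside 32.5% of all tested peaks. The shares of the other kinds over all tested peaks were not counted. A test for a difference by itself favours changes of opposite sign, so the 640 are a description. The number rested on depth and on single libraries: 486 peaks passed with all libraries thinned to the smallest total, and 591 to 1323 when single libraries were left out. The smallest counts came without replicate 2 of the treated 3 h group (591), replicate 3 of the untreated 3 h group (594), replicate 1 of the untreated 3 h group (723), replicate 1 of the treated 0 h group (736) and replicate 1 of the untreated 0 h group (760). Without replicates 4 and 5 of the treated 3 h group, 1224 peaks passed, 835 of them shared.

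The 3 peaks with the most positive difference were 7408 (10.3, SE 1.44), 104260 (5.3, SE 0.841) and 16012 (5.05, SE 0.735), all peaks at which replicate 1 of the 3 h group stood apart. Those with the most negative difference were called higher in the inhibitor at 0 h, with overlap of the libraries at peak 53141. Peak 106947 (Sc4wPfr_844, 19408 to 20246) held 4.59, 4.48, 10.1 and 3.13 CPM in treated and 0.248 to 0.590 CPM in untreated tips at 0 h. At 3 h it held 24.3 to 50.9 CPM in treated and 29.3, 36.3 and 32.9 CPM in untreated tips, so the groups overlapped. It opened by 2.57 in the inhibitor and by 6.37 without it, a difference of -3.8 (SE 0.57, edgeR adjusted p = 1.16e-05). Peak 93577 (Sc4wPfr_649, 463983 to 464419) went from 19.1, 8.91, 14.4 and 10.8 CPM to 5.0 to 6.93 CPM in the inhibitor and from 2.4 to 4.3 CPM to 11.7, 12.0 and 13.6 CPM without it, a difference of -3.1 (SE 0.416, edgeR adjusted p = 8.39e-07). Peak 53141 had a difference of -3.86 (SE 0.843, edgeR adjusted p = 0.00578), which did not pass without replicate 1 of the untreated 3 h group (-2.57, edgeR adjusted p = 0.18).

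Among motifs the difference passed for 101 of 332 (30.4%; limma), with 41 more positive (12.3%) and 60 more negative (18.1%) in iCRT14. All 6 CRE-type motifs were among the latter. Atf1 rose by 19.0 in untreated tips, from -11.4, -11.8, -9.77, -9.43 and -8.86 to 5.94, 11.4 and 8.82, against 10.7 in the inhibitor, a difference of -8.23 (SE 2.32, limma adjusted p = 0.00516). For JunD the difference was -8.63 (SE 1.52, limma adjusted p = 1.47e-05) and for CRE -7.72 (SE 1.86, limma adjusted p = 0.00107). The list's median rise was 14.9 in untreated and 7.53 in treated tips. All 6 motifs scored higher in treated than in untreated tips at 0 h, beside 28.3% of all motifs, Atf1 by 7.69 (SE 1.57, limma adjusted p = 4.42e-05). None of the 6 passed the test at 3 h, where Atf1 differed by -0.544 (SE 1.71, limma adjusted p = 0.83) and CRE, the widest, by -2.68 (SE 1.37, limma adjusted p = 0.112).

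AP-1-type motifs had the more negative change in the inhibitor for 11 of 14, and 10 of 14 scored lower in treated tips at 3 h, beside 20.8% of all motifs (19.0% scored higher). At 0 h 9 of the 14 scored higher in treated tips and 1 lower, beside 28.3% and 24.1% of all motifs. BATF went from -1.66 to -1.37 at 0 h to 2.68, 2.71 and 2.43 at 3 h in untreated tips, and from 2.1, -1.13, 0.478 and -0.613 to -0.862, -0.742, 0.188, 0.879 and -0.579 in treated tips. The treated groups overlapped while the untreated groups did not, and the difference was -4.54 (SE 0.7, limma adjusted p = 1.79e-06). Fosl2 gave -4.91 (SE 0.772, limma adjusted p = 1.89e-06). Both motifs are sites of Jun dimers in vertebrates.

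All 3 TEAD motifs fell less in the inhibitor. TEAD2 went from 4.42 to 5.94 at 0 h to -0.859, -2.16 and -2.53 in untreated tips, and from 1.02, 1.4, -0.18 and 0.108 to between -3.05 and -1.59 in treated tips, a difference of 3.97 (SE 0.617, limma adjusted p = 1.79e-06). With scores divided by the SD of each library, 1 of the 3 passed. Forkhead motifs had the more positive change in the inhibitor for 4 of 13, and 11 of 13 scored lower in treated tips at 0 h, beside 24.1% of all motifs. FOXA1 (the LNCaP-derived motif) scored -5.68, -4.06, -4.06 and -4.64 at 0 h and -0.298, -0.0941, -0.376, -2.27 and -2.19 at 3 h in treated tips. In untreated tips it scored 0.398 to 3.51 and then 3.51, -0.562 and 0.769, with overlap, and the difference of the changes was 4.49 (SE 1.47, limma adjusted p = 0.0157). That call was lost without replicate 2 of the untreated 3 h group (limma adjusted p = 0.0778). FOXM1 differed by 4.02 (SE 1.43, limma adjusted p = 0.0247), and leaving out any of 4 libraries lost the call. Nr5a2 (the mES-derived motif), a nuclear receptor site, was one of 10 motifs called in opposite directions, rising by 1.43 in treated and falling by 2.77 in untreated tips, a difference of 4.21 (SE 0.546, limma adjusted p = 4.7e-08). Smad, Sox, CEBP and Atf4, and RUNX motifs gave no call for a difference in any of their 20 members, although 1 Smad motif was more negative in iCRT14 with scores divided by the SD of each library.

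**Figure D5:**
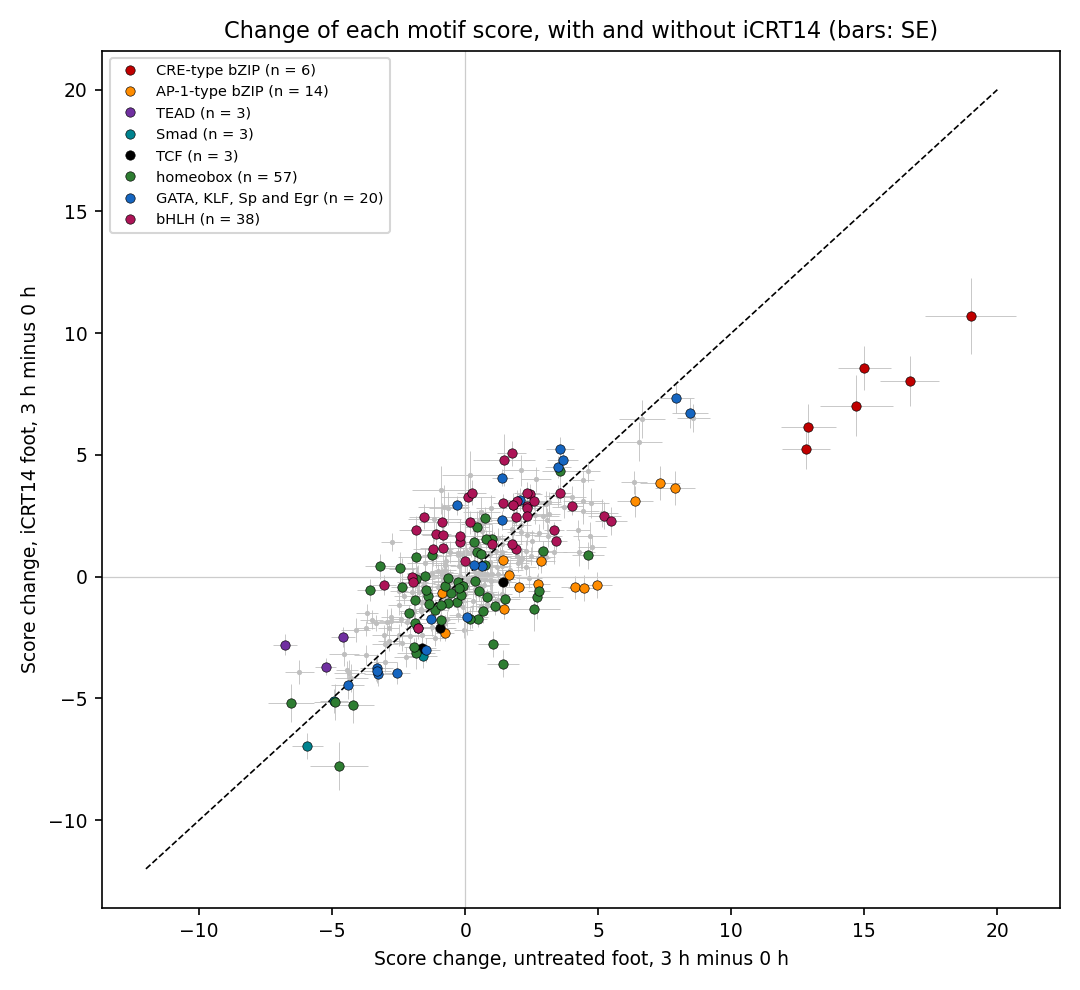
Change of each of 332 motif scores from 0 to 3 h in treated (vertical axis) against untreated foot tips (horizontal axis), in score units with bars of 1 SE and the line of equal change dashed. The 6 CRE-type motifs lie below the line at untreated changes above 12 units, and Smad motifs lie near it. AP-1-type motifs have treated changes from -2.33 to 3.84, and 11 of the 14 were called more negative in iCRT14.

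Treated and untreated foot tips differed at 21103 peaks at 0 h (19.4%; edgeR) and at 18843 at 3 h (17.3%), and at 174 motifs (52.4%; limma) and 132 motifs (39.8%). These comparisons share libraries with those of the changes. The direction of the peak differences depended on scaling: 44.4% of the calls at 0 h were higher in the inhibitor, 64.1% with library size alone as the scaling and 33.7% after thinning. At 3 h the share was 31.6%, and 46.6% with library size alone, 44.5% with limma-voom after quantile normalization, 44.1% with the replicate block and 24.2% after thinning. Library size alone moved the median of all peaks at 0 h from 0.0532 to 0.17 on the log2 scale. The treated libraries were shallower at both times, and depth and treatment cannot be told apart beyond the thinned counts, 10257 peaks at 0 h and 11169 at 3 h.

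Head-regenerating tips in the same inhibitor were compared last. In head tips 20038 peaks (18.4%) and 227 motifs (68.4%) changed from 0 to 3 h. The lists shared 11751 peaks, 69.0% of the foot and 58.6% of the head list, with 11749 in the same direction, and 187 motifs (85.8% and 82.4%), all in the same direction. Changes had a Pearson r of 0.677 across peaks and 0.952 across motifs, given as descriptions. Without the 3 libraries whose side score went against their labels, the lists shared 9919 peaks (58.6% and 60.7%) and 180 motifs (87% and 84.1%), with r of 0.628 and 0.957. The test of the difference passed at 1 peak (0.000918%; edgeR), peak 16012 (3.97, edgeR adjusted p = 0.0113), which did not pass without replicate 1 of the foot 3 h group (1.38, edgeR adjusted p = 0.969). At an unadjusted p below 0.05, 4093 peaks passed, and DESeq2 called 0. No motif passed (0.00%; limma, with 23 at an unadjusted p below 0.05). Egr1, for instance, rose by 7.32 (SE 0.591) in foot and 6.3 (SE 0.622) in head tips, with a difference of 1.02, and Atf1 by 10.7 (SE 1.57) and 8.65 (SE 1.65), with a difference of 2.09. Without the libraries labelled foot replicates 4 and 5 at 3 h the difference passed at 5 peaks, and without head replicate 4 as well at 9 peaks. The low number of calls does not show that the responses were equal, and the part of the 3 libraries with the opposite side score in it was not tested.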

How the data were processed

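The deposited peak table holds raw counts of the 71 ATAC-seq libraries in 115968 peaks on 4010 scaffolds, and the deposited motif table holds 1 deviation score per motif and library, per the file headers. The submitters' processing notes name Trimmomatic 0.36, Bowtie2 2.2.6, Picard 2.17.8, SAMtools 1.2, deepTools 3.3.1 and DiffBind, with no role or order. The genome build and whether positions start at 0 or 1 are not given in the sources used here, so positions are printed as deposited. The smallest count is 1 and 3.94% of values are listed as 1, so 1 may have been added to each count, which would compress the changes of low peaks. The score column of the deposited interval list was not used: for all 115968 peaks it equals the first library's count less 1. Every count column matched a sample.

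Counts were tested with edgeR 4.0.16 (quasi-likelihood test, filterByExpr, TMM scaling, 1 mean per group over all 71 libraries in 16 groups), which tested 108934 peaks. Scores were tested with limma 3.58.1 in the same design, in R 4.3.3. Tests were two-sided, with Benjamini-Hochberg adjustment over the whole table and a threshold of 0.05. Log2 CPM used a prior count of 2. Differences between changes were tested as interaction contrasts in the same fits. The steps were run on simulated data in which no library stood apart. That run does not cover libraries such as replicate 1 of the treated 3 h group. Replicates are separate libraries by title, and whether they came from separate cultures is not stated, so p-values measure the spread between these libraries. Of 16 replicate pairs compared, none held identical counts or agreed within sampling noise (chi-square per degree of freedom 2.21 to 6.08).

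Named peaks were the 10 largest rises and falls among called peaks without overlap of the libraries and with a group mean of at least 5 CPM, the 3 largest differences of changes in each direction and the 3 longest runs in each direction. Named motifs were the 10 largest rises and falls without overlap, the 3 largest differences in each direction, the TCF motifs and the largest change of each other list. Other motifs and peaks are named to show the members of a list or a library that stands apart, and were chosen with their values seen. The members, lists and tests were chosen with earlier results of these data known. Alternatives covered scaling, filtering, DESeq2 1.42.0, limma-voom, thinning, the groups in the fit, a replicate block, score scaling and leaving out each of 25 libraries. Leaving out foot replicates 4 and 5 at 3 h, also with head replicate 4, and another edgeR dispersion method were added after seeing the data.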

Additional observations from a re-analysis of the deposited data

Results flagged for a closer look

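Among the groups of 4 or 5 libraries checked for 1 library far from the rest, 5 of 132 stood out, and chance gives about 1 in 20. The gap to the nearest library as a share of the group's range was 0.853 for Atf1 in replicate 3 of the treated 0 h group (score -0.0448). It was 0.912 for STAT6 (the CD4-derived motif) in replicate 1 of that group (score -2.23). In the treated 3 h group it was 0.78 for peak 104260 in replicate 1 (log2 CPM 9.07), 0.817 for c-Jun-CRE in replicate 1 (score 0.827) and 0.767 for CRX in replicate 5 (score -2.37).

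Changes from 0 to 3 h in foot tips differed between treated and untreated libraries at 1159 peaks (edgeR) and 101 motifs (limma). The named peaks among them were 7408 (10.3), 104260 (5.3), 16012 (5.05), 53141 (-3.86), 106947 (-3.8) and 93577 (-3.1), as differences of log2 fold changes, treated minus untreated. At peaks 7408, 104260 and 16012 replicate 1 of the treated 3 h group stood apart. Without it the change of peak 104260 in treated tips was 0.295 (edgeR adjusted p = 0.502). The named motifs were FOXA1 of LNCaP cells (4.49), Nr5a2 of mES cells (4.21), FOXM1 (4.02), JunD (-8.63), Atf1 (-8.23) and CRE (-7.72), in score units. Between foot and head tips in the inhibitor the change differed at 1 peak, 16012 (3.97 on the log2 scale, foot minus head). That difference did not pass without replicate 1 of the foot 3 h group (1.38, edgeR adjusted p = 0.969).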

How the results depend on the processing

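The count of 17028 peaks changed in treated foot tips was 23059 with the replicate block (16350 shared), 11927 after thinning and between 13774 and 17275 when 1 library was left out, and 9876 (58.0%) were called in all 9 such fits. Replicate numbers did not pair treated foot tips at 0 h and 3 h (1 of 4 correlations of deviations over 0.1). Motif scores of treated foot and head tips at 0 h did correlate by number (4 of 4 over 0.1, from 0.109 to 0.498, 3 of 4 highest with their own number), while those at 3 h did not (1 of 4), and the motif difference between foot and head was called at 0 motifs with the replicate block too. Motif calls stayed between 199 and 238. The difference between treatments was called at 1159 peaks, against 2507 with DESeq2, 4415 with the replicate block, 2140 with the compared groups alone, 2091 with library size alone, 486 thinned, 3425 with limma-voom after quantile normalization, 1772 with edgeR's newer dispersion method, 591 to 1323 when 1 library was left out, and 1365 without foot replicates 4 and 5 and head replicate 4. For motifs it was 168 in place of 101 with array weights. The difference between foot and head was called at 1 peak, against 0 with DESeq2, the replicate block, the compared groups alone, no filter, 8 groups or limma-voom, 3 with RLE scaling, 2 thinned, 5 without foot replicates 4 and 5, 9 without head replicate 4 as well, and 0 to 5 when 1 library was left out (0 to 1 for motifs). Untreated foot tips gave 9108 calls thinned and 10173 to 17041 when 1 library was left out, lowest without 3 h replicate 1. The treatments differed at 0 h at 10257 peaks thinned and 13185 to 23495 when 1 library was left out, lowest without treated replicate 3, and at 3 h at 12338 with the replicate block and 11169 thinned. The change of TCFL2 ran from -0.442 to 0.298 when 1 library was left out, and was reversed without treated 0 h replicate 3 (0.298). The depth difference ran from -6.3 to -4.38 M when 1 library was left out (exact permutation p 0.0286 to 0.0714), and 7 of 9 such fits lost the threshold. The treatment difference of peak 7408 was 6.87 with limma-voom (adjusted p = 0.0875), and peak 16012 lost its foot and head difference in 13 alternatives. Of the alternatives for named features, 632 for peaks and 850 for motifs kept the call and direction, 16 and 19 lost the call. Among those for motifs, 1 gained a call (Tcf3, difference between treatments) and 1 was reversed (TCFL2). Thinning and leaving out libraries lower depth or number by construction, and otherwise the cause was not tested.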

Other observations

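Peaks 54952, 5106 and 111958, on 3 different scaffolds, ranked the 4 treated 0 h libraries in the same order, with replicate 3 highest (2.09, 3.34 and 1.88 CPM) and replicate 2 lowest (0.48, 1.71 and 0.427 CPM). In untreated foot tips at 0 h the same library, replicate 1, was the highest at each (3.68, 5.97 and 2.65 CPM). These peaks were picked for this after their values were seen.

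Of the 332 motifs, 75 belong to none of the lists above. Those with the largest changes included ZNF528 (4.01), ZNF41 (3.87) and ZNF382 (3.04), which rose, and Gfi1b (-2.76), which fell (limma).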
